A study of Mus musculus with 6 samples.

Results

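Matrix metalloproteinases are secreted or membrane-bound endopeptidases that carry zinc in the catalytic site, are made as inactive proenzymes and cut collagens, other matrix proteins and many soluble factors. The 10 genes described here were the rows of the expression table with the symbols Mmp13, Mmp12, Mmp3, Mmp1a, Mmp1b, Mmp10 and Mmp8, which lie side by side on chromosome 9, and Mmp9, Mmp14 and Mmp2, which lie elsewhere. They were 10 of 24129 rows, and 9 of them had a read in at least 1 library. They were selected on their normalized counts in the T1 and T2 samples, which were already known, so their difference between the cell populations is described here with no p-value, and where members past a filter are counted, the count is a description and no test of them. In mammary carcinoma the family is best known from remodelling of the matrix at the invading edge, where both tumor and stromal cells can be its source.

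Polyadenylated RNA was sequenced from 2 tumor cell populations, T1 and T2, with 3 replicate libraries each. Both came from a culture that had been sorted as CD140a+/GFP- fibroblasts from a primary tumor that 4T1GFP cells formed in BALB/c mice and was then overgrown by tumor cells. 4T1GFP is the mouse mammary carcinoma line 4T1 marked with green fluorescent protein. T1 cells (labelled 4T1A) were GFP low, adherent and epithelial in shape. T2 cells (labelled 4T1NA) were GFP high, round and loosely attached, and were passaged like a suspension culture without trypsin. Both grew in DMEM/F-12 with fetal bovine serum and penicillin/streptomycin. Handling of the culture differed with the population, so the cell population and its handling cannot be told apart, and parental 4T1GFP cells were not analysed here. Nothing in the labels says that the replicates were separate cultures. The paper states at least 3 biological replicates for its experiments in general, without describing how those of the RNA were obtained. The p-values thus measure only the spread between these libraries, which may be technical.

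The 6 libraries held 18133227 to 20839686 reads assigned to genes. Levels are the authors' normalized counts, in which 1 read was worth 0.928 to 1.06 normalized counts. Genes were compared when the 6 libraries averaged 10 normalized counts or more, and a fold change is the T1 minus the T2 mean of log2(normalized count + 1), given with its standard error (SE), so that a negative value means a lower level in T1 cells. Of 11514 genes compared, 964 (8.37%) passed the pair of filters used below, an adjusted p under 0.01 together with a log2 fold change beyond 2 in either direction. Of 6 epithelial markers 4 were lower in T2 cells past both filters. These were Epcam, at 3141 ± 314 normalized counts (mean ± SD, n = 3) in T1 and 34.7 ± 3.49 (n = 3) in T2 libraries, Cdh1 (14748 ± 908 and 465 ± 16.2), Krt14 (3795 ± 77.0 and 3.04 ± 3.70) and Krt19 (3177 ± 540 and 2.91 ± 2.54), while Krt8 (22067 ± 1097 and 19195 ± 1606) and Krt18 (23275 ± 2627 and 21658 ± 1762) were abundant in both. The summed level of the list was 67096 to 73702 normalized counts in T1 and 37484 to 43412 in T2 libraries. Of 16 leukocyte markers, 5 had no read in any library (Tyrobp, Adgre1, S100a9, Mpo and Ngp), and the summed level of the list was 130.1 to 263 normalized counts in T1 and 114 to 174 in T2 libraries, of which Cd68 and Itgb2 held most. Of 10 fibroblast markers, Col3a1, Lum, Pdgfrb and Thy1 had no read, and the sum was 353 to 403 normalized counts in T1 and 997 to 1297 in T2 libraries. In the fibroblast list Pdgfra, which encodes CD140a, was at 199 ± 7.98 normalized counts in T1 and 1099 ± 171 in T2 libraries, and Postn was at 145 ± 18.1 in T1 libraries and at 0 in each T2 library. Of 6 endothelial markers 3 had no read, and the sum stayed at or under 5.29 normalized counts in each library. The part of these marker differences in the results below was not tested.

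In mouse genome build mm10 the cluster ran over 427.1 kb of chromosome 9 (chr9:7272514-7699585) and held 10 Mmp genes among 13 annotated genes. In chromosome order these were Mmp13 (chr9:7272514-7283331), Mmp12 (chr9:7344381-7369499), Mmp1b (chr9:7368239-7388047, minus strand), Mmp3 (chr9:7445822-7455975), Mmp1a (chr9:7464141-7476869), Mmp10 (chr9:7502352-7510240), Mmp8 (chr9:7558456-7568485), Mmp27, Mmp20 and Mmp7, all on the plus strand except Mmp1b. The other members were Mmp9 (chr2:164940780-164955850), Mmp14 (chr14:54431612-54445364) and Mmp2 (chr8:92827291-92853420), on the plus strand. All are annotated as protein coding except Mmp1a, which carries the annotation of a polymorphic pseudogene. Exons of Mmp12 and Mmp1b overlap on opposite strands, and the library kit does not mark strand, so reads from the shared stretch cannot be assigned to one of them.

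Genes of this cluster are known for short promoters with a TATA box and a site for AP-1, the dimer of Fos and Jun proteins, close to the start of transcription. The 120 bases before the start site are shown here for the 5 cluster members whose levels differed most between the populations, for Mmp12 and Mmp7, which hold the same motif, and for Mmp14, which does not. The sequences are from RefSeq on build GRCm38.p6 (the build of mm10), written 5′ to 3′ on the strand of the gene, with capitals marking the letters TGAGTCA or their reverse complement TGACTCA. All lie before the annotated gene except the Mmp12 window, which precedes the second start site listed for that gene and lies inside it in an intron, and the last bases of the Mmp1b window, which fall in the first exon of the other annotation used here. The Mmp7 window also lies within AV064505, a gene annotated as antisense. In this order the windows are chr9:7445702-7445821, chr9:7502222-7502341, chr9:7272394-7272513, chr9:7464021-7464140, chr9:7388027-7388146 (minus strand), chr9:7347254-7347373, chr9:7691970-7692089 and chr14:54431478-54431597.
Mmp3: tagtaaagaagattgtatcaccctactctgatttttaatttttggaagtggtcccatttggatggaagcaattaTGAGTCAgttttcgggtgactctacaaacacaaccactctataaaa
Mmp10: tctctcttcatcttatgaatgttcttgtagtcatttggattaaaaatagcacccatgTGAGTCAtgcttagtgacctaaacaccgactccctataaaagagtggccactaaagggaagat
Mmp13: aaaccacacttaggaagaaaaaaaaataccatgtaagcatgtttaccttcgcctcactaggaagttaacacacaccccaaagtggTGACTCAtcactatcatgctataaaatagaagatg
Mmp1a: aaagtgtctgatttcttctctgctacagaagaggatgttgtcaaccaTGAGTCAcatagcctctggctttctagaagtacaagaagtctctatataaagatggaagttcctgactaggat
Mmp1b: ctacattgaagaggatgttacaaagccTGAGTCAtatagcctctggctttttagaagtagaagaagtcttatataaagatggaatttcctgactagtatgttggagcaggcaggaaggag
Mmp12: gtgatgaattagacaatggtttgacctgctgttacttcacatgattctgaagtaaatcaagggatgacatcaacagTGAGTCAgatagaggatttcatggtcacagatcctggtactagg
Mmp7: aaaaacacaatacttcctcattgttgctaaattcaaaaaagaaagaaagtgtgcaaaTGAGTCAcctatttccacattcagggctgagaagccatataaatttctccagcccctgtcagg
Mmp14: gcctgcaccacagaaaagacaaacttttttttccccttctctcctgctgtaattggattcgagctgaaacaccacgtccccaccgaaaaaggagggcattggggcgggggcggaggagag

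TGAGTCA, searched on both strands over the 300 bases from 250 before to 50 after a start site, stood in 6 of the 8 members with a promoter sequence. Of all 32851 promoters of that length 5.2% held it. Its first base was 46 bases before the start of Mmp3, 63 before Mmp10, 73 before Mmp1a, 93 before Mmp1b and 44 before the second start of Mmp12, and in Mmp13 it lay 35 bases before the start on the other strand. Mmp8 and Mmp14 did not hold it in this window, and Mmp9 and Mmp2 had no entry. Of the 10 other Mmp genes with a promoter sequence only Mmp7, the last gene of the cluster, held it, 63 bases before the start. The letters TATAAA, the core of a TATA box, stood in 7 of the 8 members (13.6% of all promoters), 16 bases before the start of Mmp13, 7 before Mmp3, 28 before Mmp1a, 49 before Mmp1b and 29 before Mmp10. In Mmp8 they lay on the other strand, 3 bases before the start, and in Mmp12 they began at base 5 counted from the second start. AGGAAG, which contains the GGAA core that Ets factors bind, stood in 7 of the 8 members, and in 35.4% of all promoters. Of the 10 other Mmp genes with a promoter sequence, 3 held TATAAA and 3 held AGGAAG. In the Mmp genes no match of one motif overlapped a match of another. A match gives the letters only. Mmp12 and Mmp7 hold TGAGTCA and were at or near 0 in these cells.

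Mmp3 encodes stromelysin 1, which cuts proteoglycans, laminin and fibronectin and activates other proenzymes of the family. Its level was 348, 140 and 164 normalized counts in T1 replicates 1 to 3 and 43142, 40780 and 43404 in T2 replicates 1 to 3. The populations did not overlap, and T1 replicate 1 lay above the other T1 libraries. The mean of 217.5 ± 114 (SD, n = 3) in T1 and 42442 ± 1445 (n = 3) in T2 libraries gave a log2 fold change of -7.72 (SE 0.262), and the T2 mean was 195-fold the T1 mean. The transcript took 0.213% to 0.230% of all assigned reads in T2 libraries and 0.000725% to 0.00181% in T1 libraries. Per kb of exon Mmp3 ranked 12 in T2 and 6080 in T1 cells among 23103 genes with a length. In bulk RNA, fewer cells that express a gene and less RNA of it per cell cannot be told apart, here and for every gene below.

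Mmp10 encodes stromelysin 2, the closest relative of Mmp3 in the family. Its level was 47.6, 38.1 and 26.4 normalized counts in T1 and 1545, 1587 and 1592 in T2 libraries. The T2 libraries lay within a narrow band, at 1575 ± 25.8 (SD, n = 3), and all lay above the T1 mean of 37.4 ± 10.7 (n = 3). The log2 fold change was -5.40 (SE 0.194). From 113 reads in T1 and 4844 in T2 libraries, scaled for depth, the ratio of T2 to T1 was 42.4, with an exact 95% interval of 35.2 to 51.6 that covers counting error only. Transcripts of Mmp3 and Mmp10 are 81.7% identical over 1346 aligned columns and share 140 stretches of 50 bases but none of 150 bases, the read length. Whether reads of Mmp3 were counted as Mmp10 was not tested.

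Collagenases are named for opening the triple helix of fibrillar collagens. Mmp13, Mmp1a, Mmp1b and Mmp8 are grouped with them here by name or human counterpart, and 3 of these 4 genes showed the same order of populations. Whether each product cuts collagen was not tested. Mmp13, collagenase 3, was at 5.29, 3.72 and 4.88 normalized counts in T1 and 830, 848 and 1114 in T2 libraries. The T1 values stand for 14 reads in all and the T2 values for 2877. The means were 4.63 ± 0.815 and 931 ± 159 (SD, n = 3 each), the log2 fold change was -7.37 (SE 0.213) and the depth-scaled ratio of T2 to T1 was 203 (exact 95% interval 121 to 373).

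Mmp1a and Mmp1b are the mouse counterparts of the human interstitial collagenase gene MMP1. Mmp1a was at 1.06, 1.86 and 0.976 normalized counts in T1 and 466, 443 and 451 in T2 libraries. With 1 or 2 reads per T1 library, 4 in all, against 1395 in T2 libraries, the depth-scaled ratio was 345 with an exact 95% interval of 134.5 to 1269. The fitted log2 fold change was -7.65 (SE 0.257), and with so few T1 reads it moved with the constant added before the logarithm, to -6.19 with 5 in place of 1.

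Mmp1b was at 4.23, 0.93 and 2.93 normalized counts in T1 and 275, 246 and 290 in T2 libraries. It had 8 reads in T1 and 833 in T2 libraries, a ratio of 103 (exact 95% interval 52.1 to 239.6), and a log2 fold change of -6.31 (SE 0.362). The T2 level of Mmp1b, which no T1 library approached, lay below that of Mmp1a per kb of exon (186 ± 15.4 against 224 ± 5.72 normalized counts per kb, n = 3), and their T2 libraries did not overlap. The size of this gap depends on the exon lengths used, 1449 bases for Mmp1b and 2024 for Mmp1a. It also depends on reads in the stretch that Mmp1b shares with Mmp12, which cannot be assigned. The 2 transcripts are 90.5% identical over 1453 aligned columns and share 163 stretches of 50 bases but none of 150 bases, so that a division of reads between them is uncertain where counting could split them.

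Mmp8, the collagenase of neutrophils, had no read in any of the 6 libraries. A count of 0 allows up to 3 reads, which is 2.78 to 3.17 normalized counts per library. Mmp12, the elastase of macrophages, had 7 reads in T1 and 4 in T2 libraries, at 2.12, 3.72 and 0.976 normalized counts in T1 and 0, 2.05 and 1.86 in T2 libraries. The ratio of T1 to T2 was 1.77 with an exact 95% interval of 0.449 to 8.23, so no difference of Mmp12 could be seen at this depth. Mmp12 lies between Mmp13 and Mmp1b, both far above it in T2 cells.

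**Figure D1:**
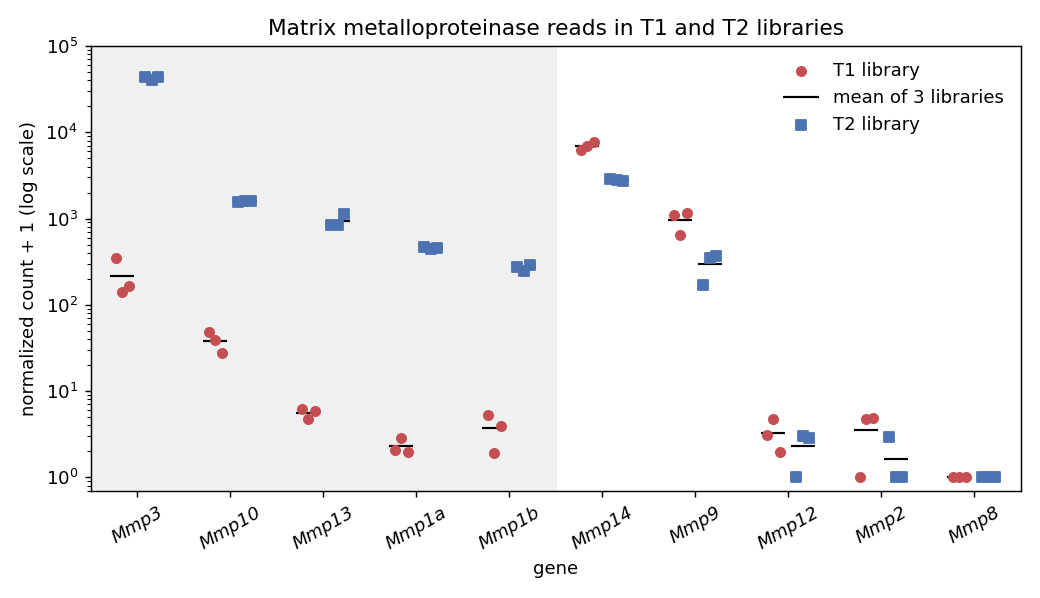
Normalized count + 1 of each of the 10 members in each library on a log axis, with circles for T1, squares for T2 and a bar at the mean of the 3 libraries of a population. Shading marks Mmp3, Mmp10, Mmp13, Mmp1a and Mmp1b, whose 3 T1 libraries sit far below the 3 T2 libraries, while Mmp9 and Mmp14 sit higher in T1 and Mmp12, Mmp2 and Mmp8 lie at or near 0 in both.

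Mmp14 and Mmp9, which lie outside the cluster, were higher in T1 cells. Mmp14 encodes the membrane-type enzyme that anchors collagen-cutting activity at the cell surface and activates the Mmp2 proenzyme. Its level was 6286, 6942 and 7749 normalized counts in T1 and 2860, 2831 and 2740 in T2 libraries. All T1 libraries lay above all T2 libraries, with means of 6992 ± 733 and 2810 ± 62.6 (SD, n = 3 each). The T1 mean was 2.49-fold the T2 mean, and the log2 fold change of 1.31 (SE 0.0852) was within 2.

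Mmp9 encodes gelatinase B, which cuts denatured collagen and type IV collagen of basement membranes. Its level was 1088, 650.1 and 1171 normalized counts in T1 and 168, 347 and 369 in T2 libraries. The populations did not overlap, but the libraries varied within both, with T1 replicate 2 low among T1 and T2 replicate 1 low among T2 libraries. The means were 970 ± 280 and 295 ± 110.1 (SD, n = 3 each), a 3.29-fold difference with a log2 fold change of 1.75 (SE 0.298). Without T1 replicate 2 it was 2.02, which passes both filters, and without T2 replicate 1 it was 1.39.

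Mmp2, gelatinase A, is made mainly by fibroblasts in many tissues and is the classical substrate of Mmp14 at the cell surface. It had 8 reads in T1 and 2 in T2 libraries, at 0, 3.72 and 3.90 normalized counts in T1 and 1.96, 0 and 0 in T2 libraries. The ratio of T1 to T2 was 4.04 with an exact 95% interval of 0.806 to 39.1, so a difference was not detectable. Mmp14 was thus abundant in libraries in which Mmp2 was at or near 0.

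Of the 10 members, 7 had the mean of 10 normalized counts needed to be compared. Past both filters were 5 of these 7, all lower in T1 cells, beside 8.37% of all genes compared (4.2% lower and 4.17% higher in T1). In all 7 the T1 and T2 libraries did not overlap, which was also so for 68.1% of all genes compared (34.2% with T1 above and 33.9% with T1 below). The median log2 fold change of the 7 was -6.31 and that of all genes -0.0055. Since the members were chosen with these values known, the counts say nothing beyond the choice.

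To compare members with each other, levels were divided by the length of the merged annotated exons, and the orders below depend on that length. In T2 cells the order was Mmp3 (23566 ± 802 normalized counts per kb, SD, n = 3), Mmp10 (914.5 ± 15), Mmp14 (471.5 ± 10.5), Mmp13 (348 ± 59.6), Mmp1a (224 ± 5.72), Mmp1b (186 ± 15.4) and Mmp9 (83.3 ± 31.1). No 2 neighbours in that order overlapped across libraries. In T1 cells it was Mmp14 (1173 ± 123 normalized counts per kb), Mmp9 (274 ± 79.1), Mmp3 (120.8 ± 63.1) and Mmp10 (21.7 ± 6.19). Within each T1 library Mmp9 was above Mmp3, at 307 against 193, 184 against 78.0 and 331 against 91.0 normalized counts per kb. Across libraries their ranges overlapped, since Mmp3 in T1 replicate 1 (193) was above Mmp9 in T1 replicate 2 (184). Mmp1b (1.86 ± 1.15), Mmp13 (1.73 ± 0.305), Mmp2 (0.754 ± 0.653), Mmp1a (0.641 ± 0.241) and Mmp12 (0.314 ± 0.190) followed in T1 cells, each from 14 reads or fewer, and the depth does not order them.

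Summed over all 23 Mmp genes of the table, the level was 1732 ± 143 normalized counts per kb (SD, n = 3) in T1 and 25987 ± 849 (n = 3) in T2 libraries, a ratio of 15. Without Mmp3 the sums were 1611 ± 157 and 2421 ± 89.1, a ratio of 1.5. Sums, ratios and shares depend on the length used, which for Mmp14 was 5960 bases of merged exons, while its longest transcript has 3238. With that shorter length both ratios would be lower and the shares of Mmp14 higher, by amounts not computed here. Mmp3 made up 90.7% ± 0.302 of the T2 sum, followed by Mmp10 with 3.52% ± 0.143, Mmp14 with 1.82% ± 0.0859 and Mmp13 with 1.34% ± 0.202. In T1 libraries Mmp14 made up 67.8% ± 5.76, Mmp9 15.7% ± 3.62, Mmp3 7.0% ± 3.71 and Mmp11 6.64% ± 0.343. The leading gene of the family was thus Mmp3 in each T2 and Mmp14 in each T1 library.

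**Figure D2:**
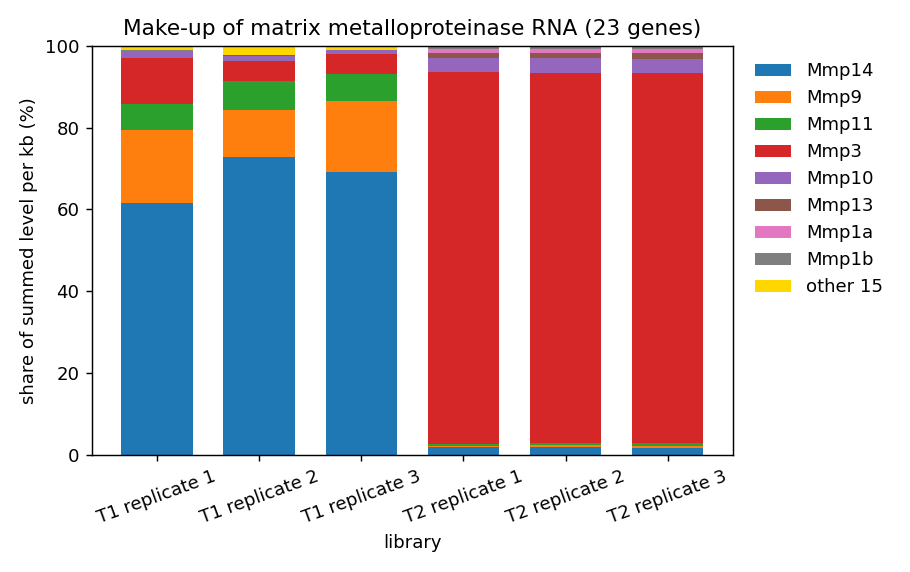
Share in percent of the summed level per kb of the 23 Mmp genes that each gene took, as 1 stacked bar for each of the 6 libraries. Mmp3 fills 90.5% to 91.0% of the T2 bars, and Mmp14 with Mmp9 fills most of the T1 bars.

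Of the remaining 13 Mmp genes of the table only Mmp11 averaged over 100 normalized counts. No read was found in any library for 5 of them, among which were Mmp27, Mmp20 and Mmp7, the 3 other genes of the cluster, and 3 could be compared. Past both filters was 1 of the 3, beside 8.37% of all genes. Mmp24, a membrane-type member known from the nervous system, was at 12.7, 46.5 and 14.6 normalized counts in T1 and 0, 2.05 and 0 in T2 libraries, and rose in T1 cells by 3.90 on the log2 scale (SE 0.649, adjusted p = 0.000428, limma with Benjamini-Hochberg adjustment, as for all adjusted p-values). It rests on 77 against 2 reads, a ratio of 38.9 with an exact 95% interval of 10.4 to 327. Without T1 replicate 2 its mean was under 10, and it was not compared. Mmp24 overlaps exons of BC029722 on the other strand, so that its reads are uncertain.

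Mmp11, stromelysin 3, was at 319 ± 24.2 normalized counts in T1 and 480.1 ± 45.5 in T2 libraries (SD, n = 3 each). It was lower in T1 by a log2 fold change of -0.59 (SE 0.122, adjusted p = 0.00181), far less than the stromelysins of the cluster, and its exons overlap those of Chchd10. Mmp15, a membrane-type member, had a log2 fold change of 0.02 (SE 0.314, adjusted p = 0.955) and overlapping libraries. Mmp19 (exons shared with Gm47093 and Tmem198b on the other strand, and chosen for mention after its values were seen) had 7 reads in T1 and 47 in T2 libraries, a ratio of T2 to T1 of 6.65 (exact 95% interval 2.99 to 17.4), and a mean too low to be compared. With no filter on low counts it was lower in T1 cells past both filters, at -2.23 (adjusted p = 0.00114). It also passed both, at -2.19 without T1 replicate 1 (adjusted p = 0.0044) and -2.13 without T1 replicate 2 (adjusted p = 0.00482). In these fits it entered because leaving out a T1 library with few reads raised its mean to the minimum. Its entry thus depended on the same difference that was then called. These calls reuse the same reads and are not separate evidence.

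The genes on both sides of the cluster give its local background. Of 10 other protein-coding genes within 1 Mb of it, Pdgfd and Trpc6 had no read and 8 were compared, of which 0 passed both filters, beside 8.37% of all genes. At an adjusted p-value under 0.01 alone, 3 of the 8 were higher (25.1% of all genes) and 2 lower in T1 cells (24.4%), and the edgeR and DESeq2 tests also gave 0 past both filters. The nearest genes were Dcun1d5, 64.3 kb before the cluster, with a log2 fold change of 0.32 (SE 0.0815, adjusted p = 0.00638), and Tmem123, 64.5 kb after it, with 0.39 (SE 0.0906, adjusted p = 0.00346). Birc3, an inhibitor of apoptosis, rose in T1 cells by 0.65 (SE 0.154, adjusted p = 0.00401). Yap1, the effector of the Hippo pathway, was at -0.36 (SE 0.079, adjusted p = 0.00244), and Cep126, a centrosomal gene, was at -1.54 (SE 0.189, adjusted p = 5.15e-05), both lower in T1. Dync2h1, a motor subunit of cilia, Birc2 and Cfap300 (listed as 9230110C19Rik) had log2 fold changes of -0.05, -0.12 and -1.13 with adjusted p-values of 0.812, 0.421 and 0.0107.

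**Figure D3:**
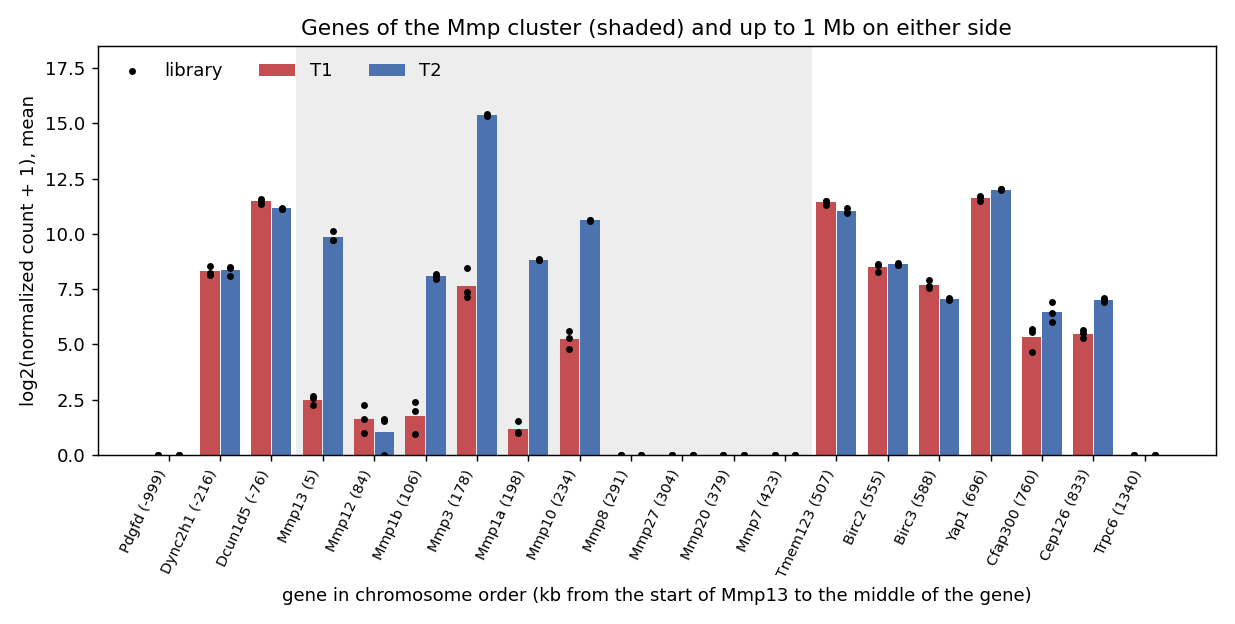
Genes of the cluster and within 1 Mb of it in chromosome order (not to scale, with the distance in kb from the start of Mmp13 to the middle of each gene), with bars for the mean log2(normalized count + 1) of T1 and T2 cells and dots for the 3 libraries of each. Mmp13, Mmp1b, Mmp3, Mmp1a and Mmp10 in the shaded cluster have tall T2 bars and short T1 bars, while the T1 and T2 means of the 8 flanking genes with reads differ by fold changes from -1.54 (Cep126) to 0.65 (Birc3) on the log2 scale.

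Inhibitors of the family were listed with 8 genes, of which 4 were compared. Like the lists below, this list was chosen with earlier results of these data known. The 4 were lower in T1 cells, by smaller steps than Mmp3, Mmp10, Mmp13, Mmp1a and Mmp1b. All 4 fell in T1 cells when judged by the adjusted p alone (24.4% of all genes did), and 0 passed both filters, beside 8.37%, also with edgeR and with DESeq2. Timp1, a secreted inhibitor of most of the enzymes, was at 2009 ± 277 normalized counts in T1 and 4103 ± 664 in T2 libraries (SD, n = 3 each), with a log2 fold change of -1.03 (SE 0.133, adjusted p = 7.57e-05). Timp2, which inhibits the enzymes and also forms the complex in which Mmp14 activates Mmp2, was at 8096 ± 105 and 14330 ± 1118, with -0.82 (SE 0.076, adjusted p = 7.24e-06). Pcolce, an enhancer of procollagen C-proteinase whose fragment inhibits metalloproteinases, was at -0.84 (SE 0.14, adjusted p = 0.000414). Reck, a membrane-anchored inhibitor named after its values were seen because it completes the 4, was at -1.48 (SE 0.255, adjusted p = 0.00055). Timp3 had 2 reads in all and Timp4 none.

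Of 19 genes for activators, inducers and partners of the enzymes 13 were compared, and 2 rose past both filters in T1 cells (4.17% of all genes) and 0 fell (4.2%). Pcsk6 encodes a proprotein convertase, of the enzyme class that removes the propeptide of membrane-type members. It was at 265, 321 and 234 normalized counts in T1 and 2.94, 0 and 0 in T2 libraries. The log2 fold change was 7.43 (SE 0.502, adjusted p = 7.86e-07), and 835 against 3 reads gave a ratio of 281 (exact 95% interval 95.9 to 1366). With so few T2 reads the fitted value was 5.56 with 5 added before the logarithm, 8.16 with 0.5, and 8.09 without T2 replicate 1, which holds all 3 reads. St14 encodes matriptase, a membrane serine protease of epithelia that can activate the Mmp3 proenzyme. It was at 3866 ± 405 in T1 and 141 ± 3.90 in T2 libraries (SD, n = 3 each), higher in T1 by 4.76 on the log2 scale (SE 0.102, adjusted p = 5.1e-10). Cd44, a hyaluronan receptor that holds Mmp9 at the surface, was at -1.14 (SE 0.109, adjusted p = 9.18e-06), and Itgav, an integrin subunit, at -0.60 (SE 0.0719, adjusted p = 4.58e-05), both lower in T1. Bsg, an inducer of the enzymes in neighbouring cells, had a log2 fold change of 0.10 (SE 0.0692, adjusted p = 0.225). Plg, the precursor of plasmin, had no read, and Plau and Furin, named after their values were seen, had log2 fold changes of -0.03 (adjusted p = 0.827) and -0.0044 (adjusted p = 0.963).

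Transcription factors known from Mmp promoters were listed with 21 genes, all compared. At an adjusted p-value under 0.01 alone, 4 were higher (25.1% of all genes) and 10 lower in T1 cells (24.4%), and past both filters were 1 higher (4.17%) and 4 lower (4.2%). Fosl1, a Fos protein of AP-1, fell in T1 cells, at 396 ± 90.7 normalized counts against 2195 ± 404 in T2 (SD, n = 3 each), with a log2 fold change of -2.48 (SE 0.183, adjusted p = 1.51e-06). Etv1, an Ets factor, was at -2.41 (SE 0.156, adjusted p = 5.75e-07), and its relative Etv5 at -2.06 (SE 0.166, adjusted p = 2.71e-06), both lower in T1. Without T1 replicate 1 or T1 replicate 2, Etv5 had -1.95 or -1.94, within 2. Elf3, an epithelial Ets factor, rose by 2.07 (SE 0.157, adjusted p = 1.74e-06), and by 1.97 without T2 replicate 2.

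Fos itself varied within both populations, and replicate 2 held the highest level in each, as it did for Fosb and Junb. Its level was 479, 4333 and 1106 normalized counts in T1 and 4518, 8535 and 6568 in T2 libraries, and T1 replicate 2 came close to the lowest T2 library. The log2 fold change of -2.26 (SE 0.608, adjusted p = 0.00815) was -1.53 without T1 replicate 1 and -3.12 without T1 replicate 2. Fos lost its call without any 1 library other than T1 replicate 2, and also with edgeR (-1.73) and with DESeq2 (-1.73). With a term for the replicate number the SE of Fos was 0.311, and it kept its call. Jund, a Jun protein, was the most abundant gene of the list by its mean over all 6 libraries, though not in T2 cells, where Jun was (7739 ± 3363 normalized counts). Jun, named after its values were seen, was at 3001 ± 968 in T1 libraries, with a log2 fold change of -1.335 (SE 0.28, adjusted p = 0.00192). Jund stood at 19937 ± 2142 normalized counts in T1 and 6156 ± 2151 in T2 libraries, higher in T1 by 1.74 (SE 0.191, adjusted p = 2.4e-05), and by 2.01, past both filters, without T2 replicate 2. Junb and Ets1 had log2 fold changes of -0.02 (SE 0.275, adjusted p = 0.964) and -0.16 (SE 0.079, adjusted p = 0.107). Fosl2 and Fosb, Fos proteins named after their values were seen, passed both filters only when a library was left out, Fosl2 at 2.03 without T1 replicate 3 (adjusted p = 0.000831) and 2.47 without T2 replicate 2 (adjusted p = 1.4e-07), and Fosb at -2.11 without T1 replicate 2 (adjusted p = 0.00119). The AP-1 genes of the list thus did not share 1 direction.

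Of 18 cytokine, growth factor and receptor genes known to induce Mmp genes 12 were compared, and 2 rose (4.17% of all genes) and 2 fell (4.2%) past both filters in T1 cells. Il1a, an interleukin that induces stromelysin and collagenase genes in fibroblasts, was at 84.7 ± 13.8 normalized counts in T1 and 5.81 ± 1.40 in T2 libraries (SD, n = 3 each), higher in T1 by 3.66 (SE 0.291, adjusted p = 2.46e-06). Tgfb2, a ligand of the TGF-beta receptors, was at 195 ± 14.2 and 9.69 ± 2.08, higher in T1 by 4.21 (SE 0.233, adjusted p = 1.94e-07). Il11, a cytokine of the interleukin 6 family, fell in T1 cells by 2.72 on the log2 scale (SE 0.396, adjusted p = 0.000173), and Areg, a ligand of the EGF receptor, fell by 2.35 (SE 0.124, adjusted p = 1.43e-07). Tgfbr2, Hbegf and Tgfbr1 were the most abundant of the rest, at 0.37 (SE 0.092, adjusted p = 0.00498), -0.89 (SE 0.132, adjusted p = 0.000196) and -0.49 (SE 0.0912, adjusted p = 0.000946).

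**Figure D4:**
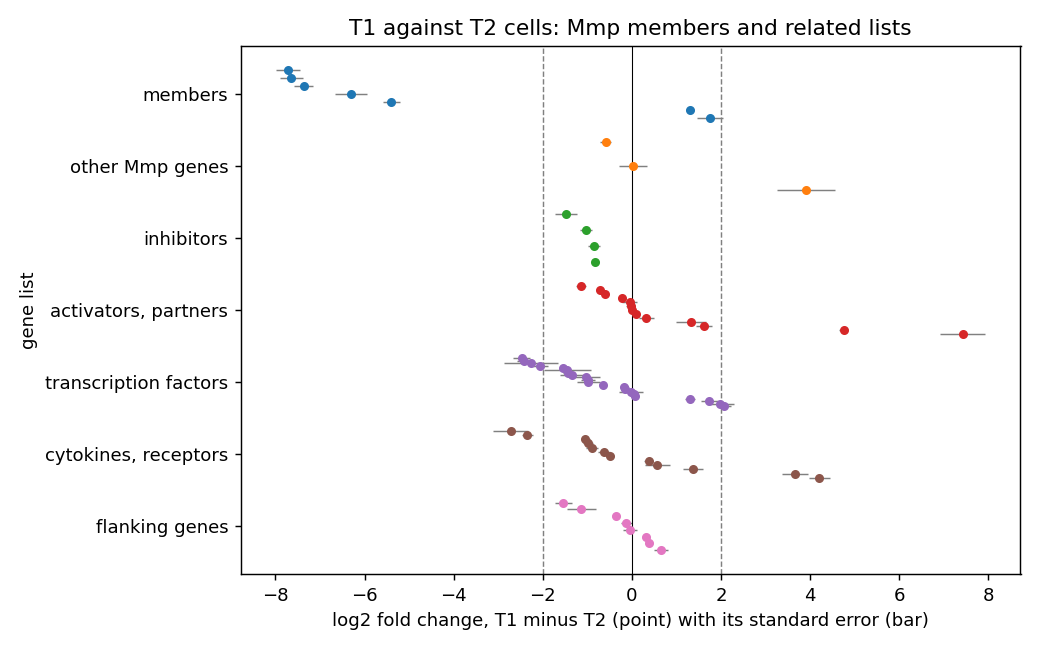
Log2 fold change (T1 minus T2) with its standard error for the members and for the compared genes of each list, with dashed lines at -2 and 2. The 5 cluster members lie between -7.72 and -5.40, below each gene of the other lists, while Mmp9 and Mmp14 and most listed genes lie between the lines.

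Among the genes compared, those whose centred log2 profile over the 6 libraries lay nearest to that of Mmp3 by Euclidean distance were Galnt15 (0.405), Siglec15 (0.540) and Myh1 (0.600). In T1 libraries they had 1, 7 and 2 reads in all and in T2 libraries 722, 1729 and 802. Nearest to Mmp1a were B4galt6 (0.459), Epdr1 (0.624) and Decr1 (0.761), which had no read in any T1 library and were at least 62.7-, 87.4- and 63.6-fold higher in T2 cells against a floor of 3 reads per T1 library. The likeness rests on 6 libraries in 2 groups and on the constant of 1 added before the logarithm. With 5 added, the log2 fold change of Galnt15 was -5.48 in place of -7.52. That of Mmp3 was -7.69 in place of -7.72. The depth-scaled ratio of T2 to T1 was 715 for Galnt15 and 200 for Mmp3.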

How the data were processed

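Poly(A) RNA libraries (TruSeq RNA V2, a kit that does not mark strand, 150-base paired-end reads) were made by the authors for 3 T1 and 3 T2 samples. The authors' pipeline was Trimmomatic for trimming, TopHat2 for alignment to mm10, HTSeq for counting and DESeq2 (median of ratios) for normalization. The deposited signal is thus a gene's read count scaled by its library's size factor. Versions, annotation and strand setting are not given in the sources used here. Every column of values was used (0 were not). Names of 27 rows had been changed to dates and are not reported.

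Samples were grouped by their titles. The members and all gene lists were chosen with earlier results of these data known. limma 3.58.1 (R 4.3.3, variance trend) was fitted on log2(normalized count + 1) to the 11514 genes that averaged 10 normalized counts or more, with Benjamini-Hochberg adjustment over all of them. The filters, adjusted p under 0.01 and absolute log2 fold change above 2, follow the study's methods. Whole reads were recovered from 100% of values (tolerance 0.01 reads). On these reads edgeR 4.0.16 (quasi-likelihood, TMM) called 974 genes and DESeq2 1.42.0 called 974, against 964 by limma. With 3 against 3 libraries the smallest exact permutation p is 0.1. The tests were first tried on simulated counts, with changes well beyond the fold change filter planted in abundant genes only and the same dispersion for every gene. That trial does not bear on low counts or on calls near the filter. Replicates differed by 7.96 to 25 chi-square units per degree of freedom, so none is a copy of another.

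Named genes are every member, each gene of a list past both filters plus the 3 most abundant of the rest, the flanking genes with a mean of at least 10, and the 3 nearest profiles of the 2 members with the largest change. Others are marked as chosen after their values were seen. Ratios from few reads carry exact conditional binomial intervals (95%), which like the floor of 3 reads cover counting error only. Coordinates and exon lengths are from GENCODE M21 (23103 of 24129 names matched by symbol), promoters from RefSeq. The alternatives tried were pseudocounts of 0.5 and 5, no filter on low counts, a minimum average of 50, quantile normalization, edgeR, DESeq2, wider filters, a term for the replicate number, and leaving out each library.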

Additional observations from a re-analysis of the deposited data

How the results depend on the processing

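Under the 14 alternatives, no member changed direction. The log2 fold change ranged from -8.12 to -7.47 for Mmp3, -5.59 to -5.18 for Mmp10, -7.66 to -6.59 for Mmp13, -8.43 to -6.19 for Mmp1a, -6.69 to -5.18 for Mmp1b, 1.39 to 2.02 for Mmp9 and 1.23 to 1.38 for Mmp14. A member was counted as moved when its fold change shifted by at least its own residual SD in the main fit. By that rule Mmp1a moved with the added constant, with quantile normalization, with edgeR and with DESeq2. Mmp13 moved with a constant of 5, edgeR and DESeq2, and Mmp1b with a constant of 5. The rule differs by gene and does not rank steadiness. Mmp3 went from -7.72 to -8.12 and Mmp1b from -6.31 to -6.69 without counting as moved. Wider filters (adjusted p under 0.05, absolute log2 fold change above 1) gave 2445 of the 11514 genes in place of 964 (1135 higher and 1310 lower in T1). They called 7 members in place of 5 (2 higher, 5 lower in T1) and 6 cytokines in place of 4 (3 higher, 3 lower). There were 13 transcription factors in place of 5 (4 higher, 9 lower) and 5 activators in place of 2 (4 higher, 1 lower). Also called were 2 inhibitors and 2 flanking genes in place of 0, all lower in T1. Of the other Mmp genes, 2 were called with no filter on low counts and 0 with a mean of at least 50, in place of 1, since fewer or more genes entered. Leaving out 1 library at a time gave 925 to 975 genes, 5 to 6 members (6 without T1 replicate 2, with Mmp9), 1 to 2 other Mmp genes (without T1 replicate 2 the 1 call was Mmp19, lower in T1, in place of Mmp24, higher in T1), 3 to 5 transcription factors (3 without T1 replicate 1), 2 activators, 4 cytokines, 0 inhibitors and 0 flanking genes. Single calls lost or gained are given in the text beside Fos, Fosb, Fosl2, Etv5, Elf3, Jund, Mmp9, Mmp19 and Mmp24. Il1b (named after its values were seen) was also gained with no filter on low counts, and Il1a was not compared with a mean of at least 50. Apart from genes entering or leaving with the filter, the cause was not tested. Depth limits Mmp12, Mmp2, Mmp8 and the T1 levels of Mmp13, Mmp1a and Mmp1b.

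The replicate numbers were tried as a block. Deviations of same-numbered T1 and T2 libraries correlated by 0.0575, 0.172 and 0.104. Those of differently numbered libraries ran from -0.152 to 0.0719, the highest being T2 replicate 1 with T1 replicate 3. Whether libraries of the same number share a batch was not tested. With the replicate block 967 genes passed both filters, 481 higher and 486 lower in T1, with 5 members, and no other count changed.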
